A study of Mus musculus with 4 samples.

Results

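The interferon-induced GTPases described here are *Iigp1*, *Igtp*, *Irgm1*, *Irgm2*, *Gbp2*, *Gbp3*, *Gbp4*, *Gbp5* and *Gbp7*, 9 of the 33456 genes listed for dissociated cells of the mouse dorsal root ganglion (DRG). They were chosen by their levels after injury: they were taken by symbol once *Gbp5* and *Iigp1* had been seen at a lower level following nerve crush in these libraries. Their injury minus control values are therefore given as a description with no test, and tests are given for cell types, which played no part in the choice. Single cell libraries (10x Genomics, 3′ end) were made from L4 DRG of C57BL/6 mice aged 8 to 12 weeks, female according to the methods, which name L5 as well. Control ganglia were uninjured and injury ganglia were collected 3 days after sciatic nerve crush, with 2 libraries for each condition, made from batches of pooled mice. No genetic change or test compound is given for either. For surgery the methods name isoflurane anaesthesia and buprenorphine analgesia, and whether the control mice received them is not stated. The labels call 1 library of each condition number 2, and the other is called replicate 1 here.

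Immunity-related GTPases (IRG: *Iigp1*, *Igtp*, *Irgm1*, *Irgm2*) and guanylate-binding proteins (GBP: *Gbp2*, *Gbp3*, *Gbp4*, *Gbp5*, *Gbp7*) are enzymes that cells make after interferon signalling. They gather on the vacuoles of intracellular bacteria and parasites, disrupt those membranes and recruit autophagy and inflammasome proteins. Interferon gamma is made mainly by T and natural killer cells, and type I interferons by many cell types. Interferon-induced promoters are known for short elements called GAS and ISRE, the latter bound by IRF proteins.

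The unique molecular identifier (UMI) put on every captured molecule lets copies be counted once, and the files hold whole UMI counts per gene and barcode. Of 6975 barcodes, 6095 had 600 to 15000 UMIs, 500 to 4000 genes and under 10% mitochondrial UMIs. Control replicates 1 and 2 kept 1301 and 1341 cells and injury replicates 1 and 2 kept 2377 and 1076 cells, with medians of 2775, 4054, 3110 and 4845 UMIs. In these cells 19095 genes had a UMI, and the members summed to 7125 UMIs. A barcode sequence occurred in more than 1 library 20 times over all barcodes. Cells were assigned to a type where at least 3 of its marker genes had a UMI, with a lead of 2 markers over any other type, and types are written as endothelial-like and so on. This placed 5172 cells, left 510 as mixed and 413 without a type. Levels are CPM, the UMIs of a gene for each 1000000 UMIs of the cells summed, given in the order control 1, control 2, injury 1, injury 2.

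The promoters of members that have an entry in RefSeq are shown because they carry, near the start of transcription, letters of the kind bound by interferon factors. The 7 members with an entry all held GAAANNGAAA or its reverse complement TTTCNNTTTC (ISRE-type, N any base) in the 250 bases before a start, beside 2.98% of 32851 promoters of that length (978). TTCNNNGAA (GAS-type, its own reverse complement) was found in 4 of the 7 (*Igtp*, *Irgm2*, *Gbp5* and *Gbp7*), beside 7.02% of promoters (2306). The stretches below are from RefSeq, GRCm38.p6, plus strand, 5′ to 3′, with the ISRE-type letters in capitals. A match is a description of the sequence and not a measured binding site.
Igtp, chr11:58199502-58199551: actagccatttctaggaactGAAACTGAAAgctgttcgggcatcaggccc
Irgm2, chr11:58214893-58214942: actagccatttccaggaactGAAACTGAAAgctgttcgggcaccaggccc
Gbp3, chr3:142559979-142560025: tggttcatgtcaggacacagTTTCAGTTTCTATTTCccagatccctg
Gbp5, chr3:142496749-142496798: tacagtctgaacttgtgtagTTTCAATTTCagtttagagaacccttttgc
Gbp7, chr3:142530263-142530312: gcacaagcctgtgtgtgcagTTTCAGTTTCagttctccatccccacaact

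The first ISRE-type base lay 34 bases before the start in *Igtp*, 64 in *Irgm2*, 30 in *Irgm1*, 59 in *Gbp2*, 45 in *Gbp3*, 53 in *Gbp7* and 165 in *Gbp5*. *Irgm1* and *Gbp3* each held a second, overlapping match, and a second annotated start of *Gbp3* held none. *Igtp* and *Irgm2*, neighbours on chromosome 11, shared an unbroken run of 55 bases in their upstream windows.

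**Figure D1:**
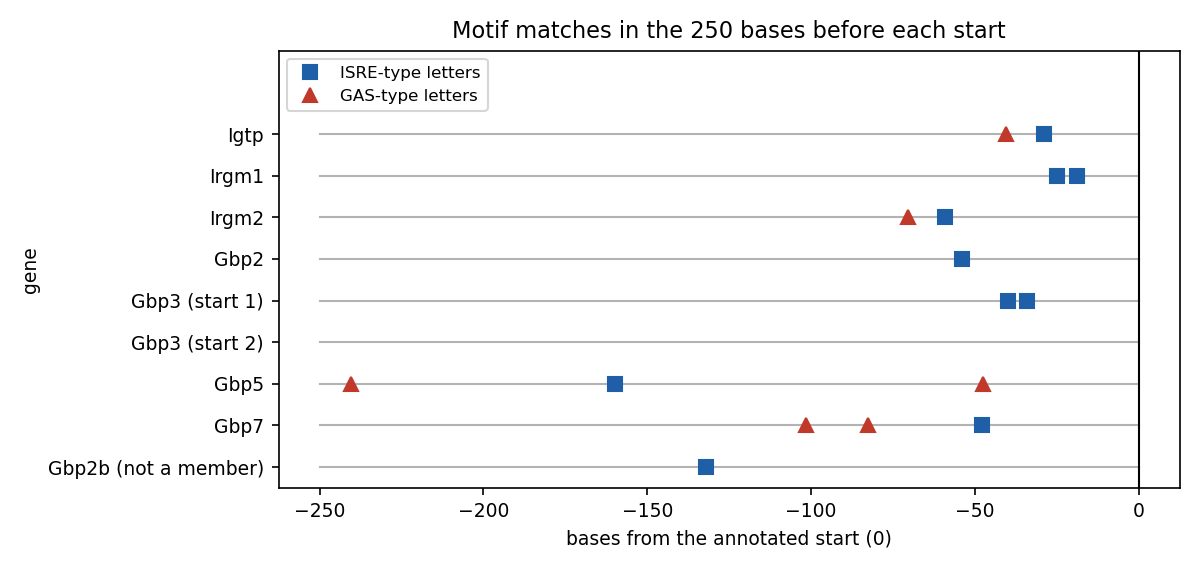
Matches to ISRE-type letters (blue squares) and GAS-type letters (red triangles) along the 250 bases before each annotated start, with the distance from the start in bases on the horizontal axis. Every member shown has at least 1 ISRE-type match, and *Igtp*, *Irgm2*, *Gbp5* and *Gbp7* also have GAS-type matches.

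Some of the genes lie close together or overlap. On GRCm38, *Gbp5*, *Gbp7*, *Gbp3* and *Gbp2* span 144031 bases (chr3:142493978-142638008), *Gbp4* is at chr5:105115767-105139586 and *Irgm1* at chr11:48861968-48871683. *Igtp* (chr11:58199556-58207591) and *Irgm2* (chr11:58199618-58222782) overlap by 7974 bases on the same strand, so reads in the overlap cannot be assigned with certainty. The identifier on the row named *Gbp5*, ENSMUSG00000040264, belongs to *Gbp2b* in the GENCODE M21 annotation, where *Gbp5* is ENSMUSG00000105504. The files have no row named *Gbp2b*, so that the row is called *Gbp5* here as labelled, and which of these genes it counts cannot be told. *Gbp4* and the gene that M21 names Gm43302 (*Gbp6* in the files) share a run of 76 bases within the last 500 of their transcripts.

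Among the 12 types with at least 10 cells in 2 or more libraries, endothelial-like cells held the highest mean level of 8 of the 9 members. Types with that many cells in 1 library only were not compared, and of these T cell-like (90.6 CPM) and B cell-like cells (76.5) of control replicate 1 stood above the endothelial-like mean for *Irgm1*, on 17 and 3 UMIs, and the cells gated on *Cldn1* and *Stra6* (20.4) for *Irgm2*, on 1 UMI. Over the 12 types (7306 genes tested), all 7 members that passed the filter on low counts were higher in endothelial-like cells than in the mean of the other types (edgeR quasi-likelihood test, Benjamini-Hochberg adjusted p from 3.68e-08 for *Irgm1* to 2.57e-22 for *Iigp1*). *Gbp5* and *Irgm2* did not pass the filter. A gene could pass it through a high level in 1 type alone. *Gbp4*, for example, had a mean of 102 CPM in endothelial-like cells and 5.85 in fibroblast-like cells. The count of 7 of 7 is therefore not independent of the filter. Of all genes tested, 29.8% were higher in endothelial-like cells. The gate rested on 434 cells (56, 162, 118 and 98 by library) and 8 markers that include no member, whose summed level was 6741 to 8338 CPM in these cells and at most 126 CPM in any library of the macrophage-like, fibroblast-like and SGC-like cells (SGC, satellite glial cell).

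**Figure D2:**
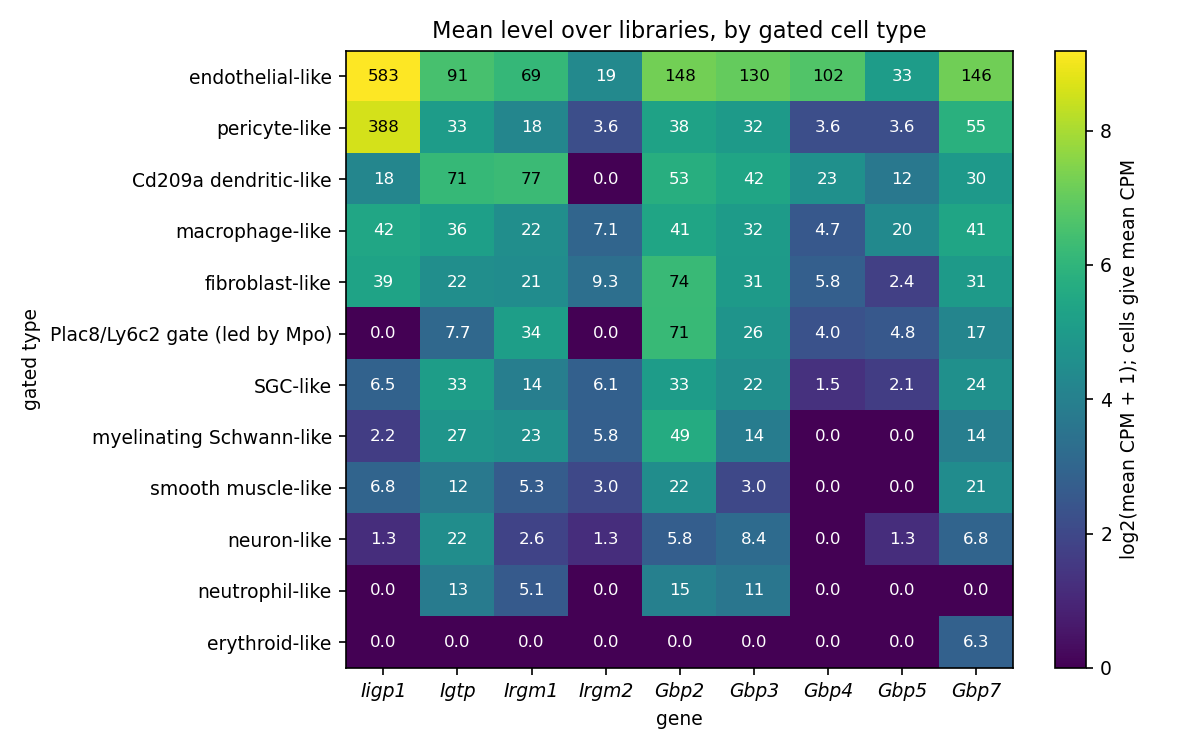
Mean CPM of each member (columns) in each of the 12 gated cell types (rows) that had at least 10 cells in 2 or more libraries, averaged over those libraries, coloured by log2(CPM + 1). Among the 12 rows, the endothelial-like row is highest for every member but *Irgm1*, for which Cd209a dendritic cell-like cells stand at 76.8 and endothelial-like cells at 69.1.

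*Iigp1* encodes an effector IRG that loads onto parasite vacuoles. In endothelial-like cells it was at 702, 450, 604 and 578 CPM (mean 583 ± 104, SD, n = 4 libraries), and these cells held 60.8% of all its UMIs. Control and injury libraries overlapped. Pericyte-like cells came next with 542 CPM in control 1 and 233 in injury 1, the only libraries with at least 10 of them, and endothelial-like cells exceeded them by a log2 difference of 1.15 ± 0.34 (SE, edgeR, adjusted p = 0.00897). Macrophage-like cells (42.5 ± 26.4, SD) and fibroblast-like cells (39.1 ± 26.2) followed, closer to each other than the spread of either. The differences from endothelial-like cells were 3.63 ± 0.27 and 3.98 ± 0.26 (log2, SE, edgeR adjusted p = 1.31e-14 and 3.27e-16), and 5.97 ± 0.31 from SGC-like cells (adjusted p = 6.58e-19).

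At a matched depth of 1000 UMIs per cell, 34.1% of endothelial-like cells had an *Iigp1* UMI (exact binomial 95% interval 29.6 to 38.8) and 22.1% of pericyte-like cells. The share was 2.42% in macrophage-like, 2.09% in fibroblast-like and 0.425% in SGC-like cells, and these intervals cover counting error only. Without thinning the shares were 73.3%, 29.3%, 7.85%, 5.10% and 1.63%. The median depth was 4329.5 UMIs in endothelial-like, 2082 in pericyte-like, 4116.5 in macrophage-like, 4071.5 in fibroblast-like and 3923 in SGC-like cells. No *Iigp1* UMI was seen in 91 neutrophil-like cells (median 4158 UMIs), which allows a share of cells with a UMI of up to 3.30% (3 counts of the total, counting error only). Among the 81 macrophage-like cells with an *Iigp1* UMI, 33.3% also had a UMI of an endothelial or pericyte marker, against 16.7% of those without one. The same shares were 27.9% and 24.1% in fibroblast-like cells and 43.5% and 11.7% in SGC-like cells, and the part of such mixed barcodes in these low levels was not tested.

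The 3 other IRGs, *Igtp*, *Irgm1* and *Irgm2*, are regulators, which sit mainly on the cell's own membranes and hold effectors such as *Iigp1* inactive there. *Igtp* was at 139, 70.6, 61.1 and 93.4 CPM in endothelial-like cells. These were above the macrophage-like cells (59.9, 38.6, 21.1 and 23.5) and the SGC-like cells (38.0, 28.3, 38.9 and 28.7) in every library. The log2 differences were 1.03 ± 0.26 and 1.13 ± 0.24 (SE, edgeR adjusted p = 0.000757 and 0.000104). *Igtp* was the member whose call in SGC-like cells, against the mean of the other types, was higher (log2 1.17 ± 0.36, edgeR adjusted p = 0.00616). SGC-like cells were the most numerous type and held 23.2% of its UMIs.

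*Irgm1*, which is also needed for autophagy in macrophages, had a large spread between libraries. In endothelial-like cells it was at 153, 28.7, 61.1 and 33.5 CPM, an SD (57.7) close to the mean of 69.1, with control 1 far above the other libraries. The same library was the highest for *Irgm1* in macrophage-like (50.7 against 11.7 and 6.10 after injury), fibroblast-like (50.4 against 12.9, 10.4 and 10.8) and SGC-like cells (38.0 against 5.86, 8.78 and 4.91). *Irgm2* stayed low, at 22.5, 23.9, 13.1 and 17.6 CPM in endothelial-like cells and a mean of 9.29 ± 4.36 (SD) in fibroblast-like and 7.08 ± 2.70 in macrophage-like cells.

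Among the GBPs, which coat vacuoles and free bacteria, *Gbp4* had the largest log2 difference between endothelial-like cells and each of the pericyte-like, fibroblast-like, macrophage-like and SGC-like cells. Its level in endothelial-like cells was 135, 116, 50.2 and 107 CPM, against 9.57, 7.16, 0 and 6.66 in fibroblast-like and 6.91, 7.02, 1.57 and 3.48 in macrophage-like cells. Each endothelial-like library exceeded every library of those types, with log2 differences of 4.10 and 4.13 (edgeR, both called). *Gbp2* had the smallest difference from fibroblast-like cells, at 256, 80.2, 100 and 157 CPM in endothelial-like and 107, 62.3, 61.1 and 65.8 in fibroblast-like cells, an overlap, with a log2 difference of 0.82 ± 0.27 (SE, edgeR adjusted p = 0.0114).

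*Gbp3* (180, 121, 107 and 113 CPM in endothelial-like cells) and *Gbp7* (175, 157, 103 and 148) were each above every library of the macrophage-like and fibroblast-like cells, where they lay between 20.8 and 47.8 CPM. *Gbp5*, which in other cells promotes inflammasome assembly, was at 58.5, 19.1, 17.4 and 35.2 CPM in endothelial-like and 29.9, 42.1, 3.52 and 3.48 in macrophage-like cells. These overlapped, and the neighbours in the order of types for *Gbp5* did not differ beyond their spread. Against single types, all 7 tested members were called higher in endothelial-like cells than in pericyte-like, fibroblast-like, macrophage-like and SGC-like cells alike, beside 13.5%, 22.8%, 22.6% and 26.6% of all genes. These single-type contrasts were chosen after the data were seen, since a log2 difference from the mean of all types depends on types at or near 0. They cover only members that passed the filter, which a high endothelial-like level could help a member to pass.

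Outside the endothelial-like cells, 15 further pairs of member and type were called higher than the mean of the other types. Fibroblast-like cells had 5 of 7 (*Gbp7*, *Gbp3*, *Gbp2*, *Gbp4*, *Iigp1*), beside 33.2% of genes, and macrophage-like cells 5 of 7 (*Gbp7*, *Gbp3*, *Gbp4*, *Igtp*, *Iigp1*), beside 32.9%. Cd209a dendritic cell-like cells had 3 of 7 (*Gbp4*, *Irgm1*, *Igtp*; 12.9% of genes) from 44 cells, pericyte-like cells 1 (*Iigp1*; 15.6%) and SGC-like cells 1 (*Igtp*; 34.6%). The dendritic call for *Gbp4* turned to a log2 difference of -1.27 both with a stricter gate and without control replicate 1. Without that library the difference fell from 2.14 to 0.23 for *Igtp* and was 2.02 against 2.19 for *Irgm1*, and neither was called. Control replicate 1 held 11 of the 13 *Igtp* UMIs and 12 of the 14 *Irgm1* UMIs of these cells. In neutrophil-like cells *Gbp7* was lower, beside 7.46% of genes lower there.

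None of the 7 was called higher in the remaining types. The shares of all genes called higher there were 11.2% in erythroid-like cells, 21.5% in myelinating Schwann cell-like cells, 25.2% in neuron-like cells and 22.6% in smooth muscle-like cells. The share was 16.4% in the cells gated on *Plac8* and *Ly6c2*, whose leading genes (*Mpo*, *Ctsg*, *Prtn3*) encode granule proteins of neutrophils. The calls of all 9 members in a type cannot be taken from these 7, as *Gbp5* and *Irgm2* were too low to test.

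The profile over the 12 types was shared among the members. Pearson's r of each member with the mean of the others on log2(CPM + 1) ran from 0.756 (*Irgm2*) to 0.908 (*Gbp3*). All points come from the same 4 libraries, and sums of small types rest on few UMIs. The genes outside the family with the most similar profile were *Ifit3* (r = 0.929) and *Parp14* (0.903), both interferon-induced, followed by *Tcf4* (0.883), *Mgat1* (0.879) and *Kank3* (0.876). Genes of the marker lists, endothelial markers among them, were left out of this search.

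Other genes of the pathway, in lists chosen with results of these data known, were also mostly higher in endothelial-like cells, and none was called lower, beside the 29.8% of all genes called higher. The share of all genes called lower is not given here. A list gene could pass the filter on low counts through a high level in a single type. The counts of tested list genes are therefore not independent of the filter. All 5 tested of the 17 other IRG and GBP genes were called higher (median log2 3.74), including *Ifi47* (3.33), *Gm4951* (4.38) and *Gbp6* (3.74). Of 23 other interferon-induced genes 17 of the 18 tested were higher (median 3.09), among them the membrane restriction factors *Ifitm3* (2.11) and *Bst2* (2.37) and the ubiquitin-like *Isg15* (1.78), and the chemokine *Cxcl9* did not pass (edgeR adjusted p = 0.109). All 13 class I antigen presentation genes were higher (median 1.56), with *B2m* at 1.23, *H2-D1* at 1.56 and *H2-K1* at 2.08. The median of all genes in this contrast was 0.19. Macrophage-like cells, with 32.9% of all genes called higher, had similar counts, 5 of 5 other IRG and GBP genes, 14 of 18 other interferon-induced genes, 13 of 13 class I genes, 8 of 10 transcription factors and regulators and 5 of 5 ligands, receptors and kinases, and none was lower.

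Of the 12 transcription factors and regulators, 8 of the 10 tested were higher (median 1.64), including *Irf1* (2.61) and the feedback inhibitor *Socs3* (1.05). *Irf8*, a factor of myeloid cells, was at -0.37 and did not pass. Of the 9 ligands, receptors and kinases, 5 were tested and 3 were higher: the type I receptor chains *Ifnar1* (1.90) and *Ifnar2* (1.34) and the kinase *Jak1* (0.83). The chains of the interferon gamma receptor did not pass, with *Ifngr1* at 0.29 ± 0.42 (SE) and *Ifngr2* at 0.52 ± 0.45, so an endothelial-like excess of the receptor was not detected.

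After crush, both injury libraries were below both control libraries for 6 of the 9 members over all filtered cells (*Gbp5*, *Gbp7*, *Gbp4*, *Igtp*, *Irgm2*, *Iigp1*). Of all genes with at least 10 UMIs, 17.6% showed that order. This contrast chose *Gbp5* and *Iigp1*, so the count is a description. *Iigp1* was at 108, 86.2, 48.6 and 74.1 CPM over all cells and *Gbp5* at 11.9, 6.64, 2.84 and 4.82, with fitted log2 differences (injury minus control) of -0.60 and -1.22. Sums over all cells mix the share of each type with the level inside it, and endothelial-like cells made up 4.30%, 12.1%, 4.96% and 9.11% of the filtered cells.

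**Figure D3:**
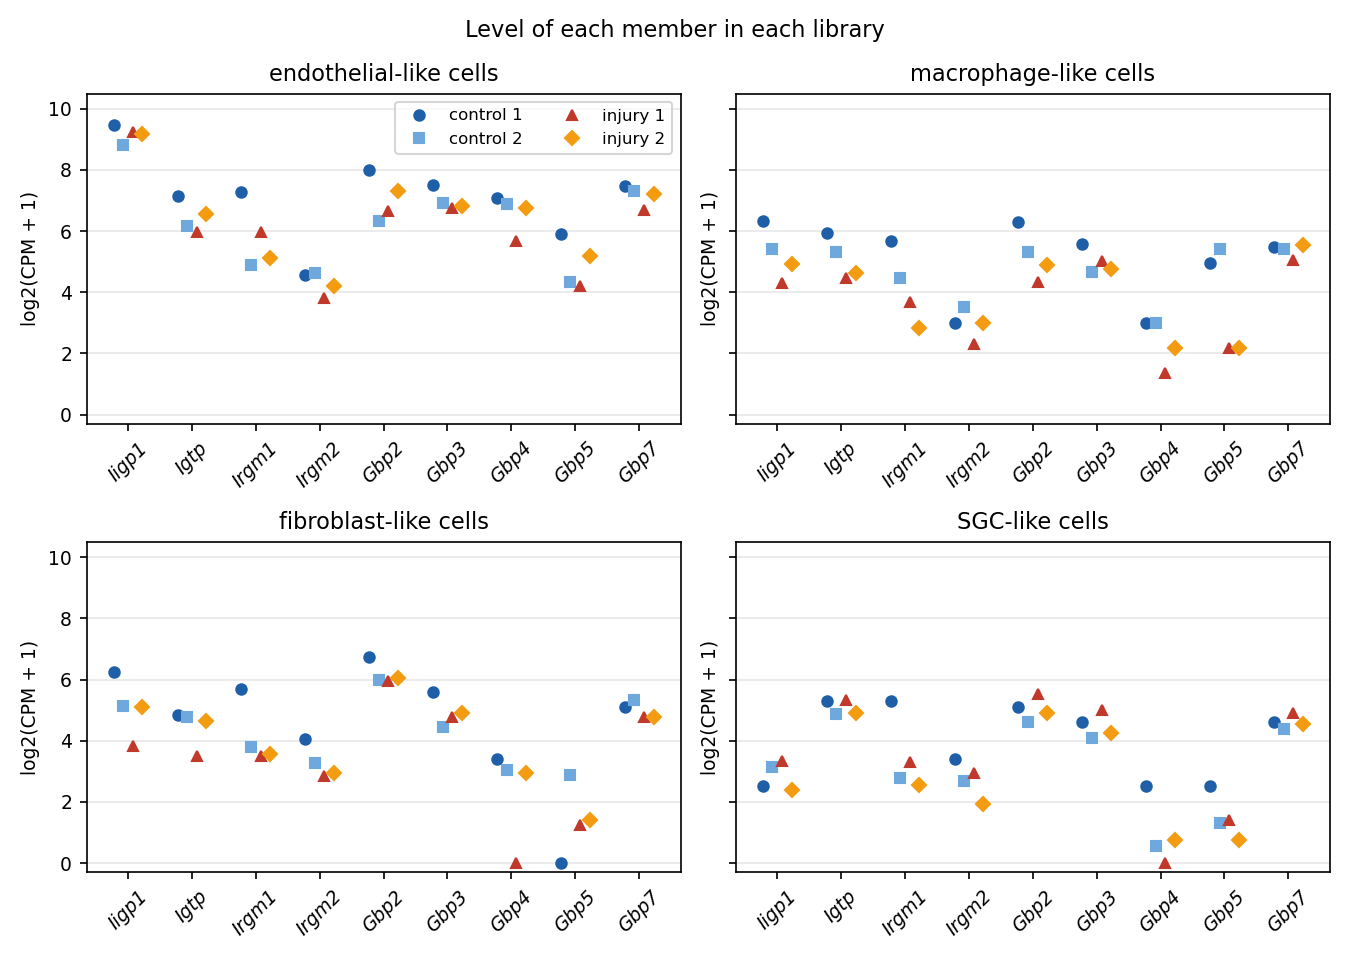
Level of each member, log2(CPM + 1), in each of the 4 libraries within endothelial-like, macrophage-like, fibroblast-like and SGC-like cells, with control libraries in blue and injury libraries in red and orange. Injury points lie under both control points for 6 members in macrophage-like, 6 in fibroblast-like, 4 in endothelial-like and none in SGC-like cells.

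Within types the picture differed in size. In macrophage-like cells (256, 78, 490 and 208 cells), *Gbp5* was at 29.9 and 42.1 CPM in the controls against 3.52 and 3.48 after injury, a fitted log2 difference of -3.38 ± 0.43 (SE). *Iigp1* (79.5 and 42.1 against 18.8 and 29.6) differed by -1.59 ± 0.40 and *Igtp* (59.9 and 38.6 against 21.1 and 23.5) by -1.35 ± 0.34. None of these pairs of conditions overlapped. *Irgm1* was at -2.17 ± 0.55, *Gbp2* at -1.55 ± 0.41, *Gbp3* at -0.55 ± 0.40 and *Gbp7* at -0.30 ± 0.29. The median over the 7 members fitted was -1.55, beside -0.00 for all genes.

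In macrophage-like cells 6 of 9 members had both injury libraries lower, beside 12.3% of genes. Without control replicate 1 the median over members was -0.84 and *Gbp5* was at -3.58, and 7 of 9 members had both injury libraries below control replicate 2, beside 33.9% of genes. The endothelial marker list in macrophage-like cells was at 91.0, 126, 20.0 and 100 CPM, lowest in injury 1. The marker list behind the gate on *Plac8* and *Ly6c2*, which stood at 8689 to 12347 CPM in neutrophil-like cells, was at 728, 565, 347 and 290 CPM in macrophage-like cells. Both injury libraries were below both controls for it, as for 6 of the 9 members. The neutrophil marker list itself was at 182, 133, 27.8 and 252 CPM in macrophage-like cells, highest in injury 2 and not in that order. The part of any of these lists in the member levels was not tested. The members differed among themselves in macrophage-like cells, from *Gbp5* at the far end to *Gbp7*, whose control levels of 43.8 and 42.1 CPM overlapped the 32.5 and 46.2 after injury.

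In endothelial-like cells, where the members were highest, *Iigp1* differed by 0.14 ± 0.28 (log2, SE) and *Gbp5* by -0.13 ± 0.59, with overlapping libraries for both. Both injury libraries were lower for 4 of 9 members (*Gbp4*, *Gbp3*, *Gbp7*, *Irgm2*), beside 20% of genes, with *Gbp4* at -0.55 ± 0.34. The median over 9 members was -0.30, beside -0.01 for all genes. Without control replicate 1 that median was 0.23, while 4 of 9 members still lay below control replicate 2, beside 40.3% of genes.

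In fibroblast-like cells 6 of 9 members were lower in both injury libraries, beside 19.1% of genes, with *Irgm1* at -1.48 ± 0.66 and *Iigp1* (75.7 and 34.4 against 13.2 and 33.3 CPM) at -1.20 ± 0.51. The median over the 7 members fitted was -0.61, beside -0.01. Against control replicate 2 alone the count was 7 of 9, beside 41.9% of genes, and over all cells 6 of 9, beside 48.9%. In SGC-like cells, the main glia of the ganglion, none of 7 members with at least 10 UMIs was lower in both injury libraries, beside 14.8% of genes, and the median was 0.20, beside 0.01. The members summed to 181, 109, 170 and 111 CPM there, so the conditions overlapped. None of 5 in myelinating Schwann cell-like cells and 1 of 3 in smooth muscle-like cells had that order, beside 14.2% and 15.9% of genes. Of the 42 pairs of member and type with at least 10 UMIs, 0 had both injury libraries higher. The share of all genes in that order is not given here, so this count is a description.

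The 2 against 2 fits over all genes called few genes of any kind, which sets the scale for these differences. At a Benjamini-Hochberg adjusted p under 0.05 (edgeR), fibroblast-like cells had 3 genes of 8798 (0.0341%), all higher after injury, the acute phase genes *Saa1* (log2 3.15, adjusted p = 0.0282) and *Saa2* (3.58) and the chemokine *Ccl9* (4.04). Called genes were 0% in all filtered cells, SGC-like, myelinating Schwann cell-like, macrophage-like, neutrophil-like, endothelial-like and smooth muscle-like cells. At an unadjusted p under 0.05 there were 181, 88, 41, 550, 8, 104 and 64 genes, in that order, and 177 in fibroblast-like cells. DESeq2 called 6 genes over all cells, 1 in SGC-like, 3 in Schwann cell-like, 17 in macrophage-like and 10 in fibroblast-like cells, and none in the other 3 types.

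In these fits no gene of the pathway lists was called in any type (edgeR). In macrophage-like cells the median log2 difference was -1.19 for the other IRG and GBP genes (4 of 4 tested below 0), -0.92 for transcription factors and regulators (10 of 10), -0.87 for other interferon-induced genes (18 of 19), -0.52 for class I genes (13 of 13) and -0.37 for ligands, receptors and kinases (4 of 5). Of these, 3, 5, 7, 5 and 1 were lower at an unadjusted p under 0.05 (edgeR). The same contrast chose the members, and the lists were set with earlier results of these data known. These medians and counts are therefore a description and no independent support. Over all 7278 genes tested in macrophage-like cells the median was -0.001. There, 550 genes had an unadjusted p under 0.05 (edgeR) in either direction, and their share by direction was not taken. The chemokine *Cxcl9* was at 144, 87.7, 13.3 and 25.3 CPM there, with every injury library below both controls. *Irf7* was at 127, 91.2, 23.1 and 64.4, in the same order. With the replicate number as a block, *Cxcl9* and *Irf7* were called lower in macrophage-like cells. In endothelial-like cells the 5 medians lay between -0.22 and 0.01 and in fibroblast-like cells between -0.30 and 0.03.

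*Ifng*, the gene of interferon gamma, had 84 UMIs in 34 of the 6095 cells. By library these were 76, 2, 4 and 2 UMIs (17.7, 0.324, 0.438 and 0.344 CPM), so nearly all lay in control replicate 1. T cell-like cells held 74 of them and made up 4.46%, 0.373%, 0.252% and 0% of the filtered cells (58, 5, 6 and 0 cells). The members summed to 456, 286, 209 and 257 CPM over all cells in the same libraries, again highest in control replicate 1. Over pairs of member and type with at least 10 UMIs, control replicate 1 was the highest library in 27 of 42, and in 5 of 5 for *Irgm1*. How often that library was the highest for genes in general was not counted, so this describes the members only. Control replicate 1 also had the lowest median depth of the 4 libraries (2775 UMIs). *Ifnb1*, a type I interferon, had 2 UMIs in all. The part of the T cell-like cells and of *Ifng* in the member levels was not tested.

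**Figure D4:**
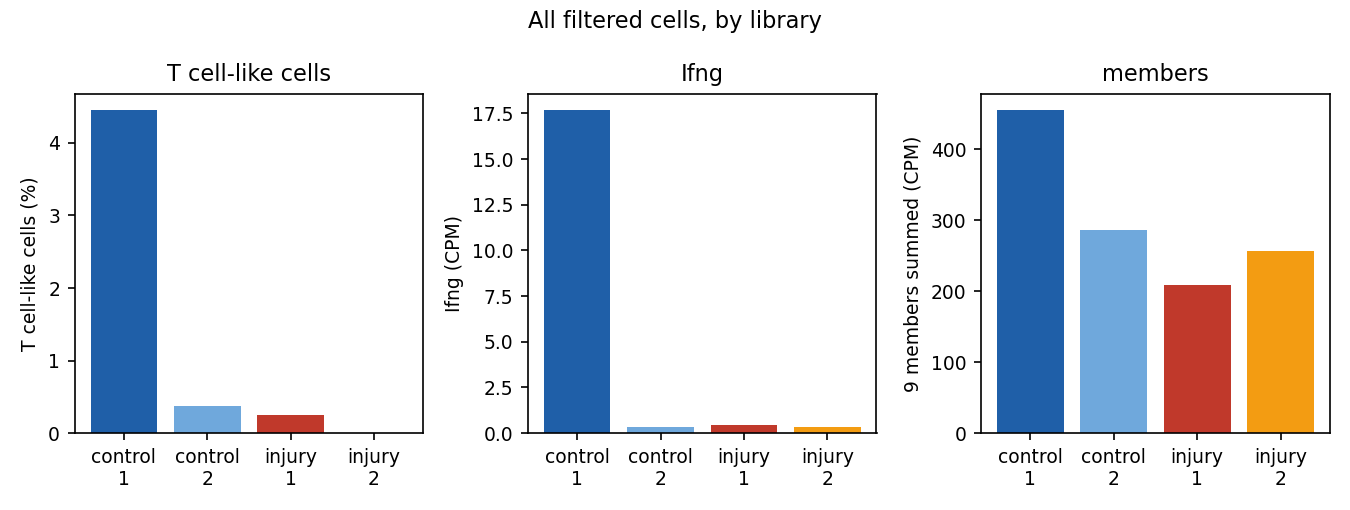
Share of T cell-like cells (percent of filtered cells), *Ifng* (CPM) and the sum of the 9 members (CPM) over all filtered cells in each of the 4 libraries. Control replicate 1 has the highest bar in all panels, 4.46%, 17.7 CPM and 456 CPM.

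Some cells held UMIs of many members. Cells with UMIs of at least 6 of the 9 members, a limit set after the data were seen, numbered 58 and held 18.4% of all member UMIs. As they were picked by member UMIs, a large share is built into the choice. Their median depth was 6714.5 UMIs in endothelial-like, 6150 in macrophage-like and 4292 in fibroblast-like cells. All cells of these types had medians of 4329.5, 4116.5 and 4071.5 UMIs. The 58 cells made up 1.92%, 1.64%, 0.168% and 0.651% of the filtered cells by library, and they held 33.6%, 19.3%, 5.46% and 14.0% of the member UMIs. Both control libraries were above both injury libraries in both measures. Of these cells 26 were endothelial-like, 12 fibroblast-like and 7 macrophage-like, and none was SGC-like. The endothelial-like ones were 12.5%, 8.02%, 2.54% and 3.06% of that type. The cell with the most came from injury replicate 2, an endothelial-like cell with UMIs of all 9 members, 137 of its 9432 UMIs, of which 43 were *Gbp2* and 31 *Iigp1*.

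**Figure D5:**
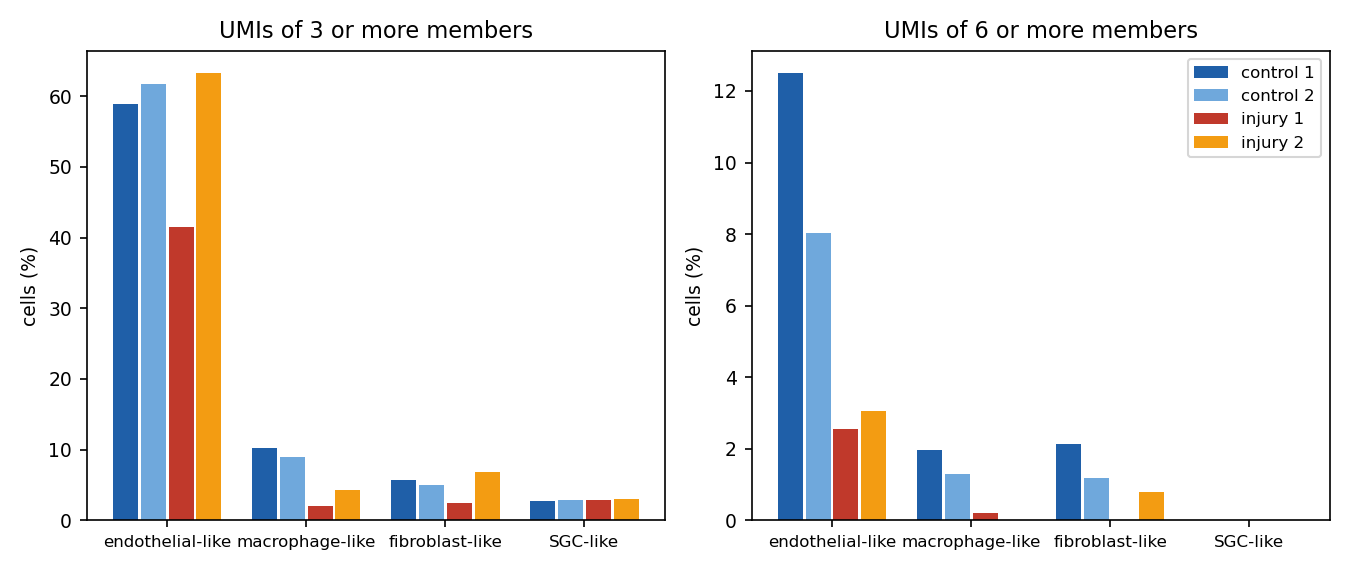
Share of cells (percent, not thinned) with UMIs of 3 or more members (left) and 6 or more members (right) in endothelial-like, macrophage-like, fibroblast-like and SGC-like cells, with 1 bar per library, of unequal depth. At 3 or more, endothelial-like cells stand at 41.5% to 63.3% and SGC-like cells at 2.67% to 3.01%.

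In the cells with 6 or more members, class I genes were higher than in the other cells of the type for 13 of 13 genes. This held in endothelial-like (median ratio 1.72), macrophage-like (3.24) and fibroblast-like cells (7.63), pooled over libraries and with no test. Ligands, receptors and kinases were higher for 2 of 7 (0.76), 1 of 7 (0.47) and 4 of 7 genes (1.06) in the same order. The remaining lists were mostly higher. These cells were picked by member UMIs, and the share of all genes higher in them was not taken. By library they were 7, 13, 3 and 3 endothelial-like, 5, 1, 1 and 0 macrophage-like and 6, 4, 0 and 2 fibroblast-like cells. The ratios therefore mix differences between libraries with differences between cells. The share of macrophage-like cells with UMIs of at least 3 members was 10.2% and 8.97% in the controls and 2.04% and 4.33% after injury. These shares rest on 26 of 256, 7 of 78, 10 of 490 and 9 of 208 cells. Median depth of macrophage-like cells was 2994 and 3237 UMIs in the controls and 4709.5 and 4965.5 after injury. The part of depth in the shares was not tested. This contrast chose the members, so the shares are a description.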

How the data were processed

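The authors deposited, for each of 4 libraries, a matrix of raw UMI counts per gene and barcode made with Cell Ranger on mm10 (the submitters' processing notes, which also name Partek, give no version). No value was normalized before deposit. Cells were filtered with the limits of the study's methods (600 to 15000 UMIs, 500 to 4000 genes, under 10% mitochondrial UMIs). No doublet caller was run. Barcodes with at least 3 markers of a type but a lead under 2 markers over another were left as mixed. Barcodes with a lead of 2 or more kept their type even where they held markers of another type. *Emr1* stood for *Adgre1* among the macrophage markers. The members, marker lists and pathway lists were chosen with earlier results of these data known. *Gm12250*, *Gbp2b*, *Gbp10*, *Gbp11* and *Mx2* have no row under these symbols and were not analysed here.

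Raw counts were summed per library and type (at least 10 cells) and fitted over all genes passing edgeR's filterByExpr with edgeR 4.0.16 in R 4.3.3 (quasi-likelihood test, TMM scaling, Benjamini-Hochberg adjustment, called at adjusted p under 0.05). Cell types were compared in 1 fit with the library as a block, and conditions within each type, 2 libraries against 2. All 9 members are named, with, for each pathway list, the genes called or the 3 with the most UMIs. Also named are the 5 genes of most similar profile among those with at least 500 UMIs and outside the marker lists. *Irf7*, *Cxcl9*, *Ifng*, *Ifnb1*, *Ifngr1* and *Ifngr2* were named after their values were seen. Similar profiles and figures used log2(CPM + 1), and depth was matched by thinning cells to 1000 UMIs. The scripts were tested on simulated data. The study's reporting summary gives 2 biological replicates, each batch pooled from several mice, so p-values measure only the spread between these libraries. Alternatives were DESeq2 1.42.0, its size factors, no filter on low counts, all barcodes, a stricter gate, a lead of 1 marker, no library block, a replicate block and each library left out. Promoters are RefSeq windows of 250 bases, in which 7 of the 9 members had an entry.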

Additional observations from a re-analysis of the deposited data

How the results depend on the processing

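All 7 tested members remained higher in endothelial-like cells under every alternative of the comparison between types (7 to 8 called with a library left out). Pairs of member and type called higher outside endothelial-like cells numbered 10 to 18 with a library left out, against 15. Pairs called lower numbered 1, and were 7 with DESeq2, 4 with all deposited barcodes and 0 to 1 with a library left out. Over 253 alternatives of the 23 called pairs, 217 kept the call, 34 lost it and 2 turned, both *Gbp4* in Cd209a dendritic cell-like cells (log2 -1.27 with the stricter gate, and -1.27 to 5.15 with a library left out, the lowest without control replicate 1).

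Genes called in the injury minus control fits depended on the settings, and the cause was not tested. Without the filter on low counts there were 9 genes in SGC-like, 9 in Schwann cell-like, 204 in macrophage-like, 3 in neutrophil-like, 18 in endothelial-like, 3 in smooth muscle-like and 48 in fibroblast-like cells. DESeq2 called 6 over all cells, 1 in SGC-like, 3 in Schwann cell-like, 17 in macrophage-like and 10 in fibroblast-like cells, and all deposited barcodes gave 1 in fibroblast-like cells. With a library left out the counts ran from 0 to 25 over all cells, 0 to 15 in SGC-like, 1 to 29 in Schwann cell-like, 0 to 50 in macrophage-like, 0 to 9 in neutrophil-like, 0 to 25 in endothelial-like, 0 to 21 in smooth muscle-like and 0 to 144 in fibroblast-like cells, and a condition left with 1 library was assumed to vary like the other.

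Samples with the same replicate number deviated together (r from 0.28 to 0.50 over the 8 comparisons), but with 2 pairs the number is no more than a shared label. With it as a replicate block the fits called 5 genes in SGC-like, 19 in Schwann cell-like, 155 in macrophage-like, 1 in endothelial-like, 4 in smooth muscle-like and 24 in fibroblast-like cells. Over the 8 comparisons the block called 2 transcription factors and regulators, 5 other interferon-induced genes and 3 class I genes, and the fits without the filter on low counts called 2, 5 and 3. With the block, *Ifitm3* was called higher and *H2-D1* lower in Schwann cell-like cells, and the other calls were lower in macrophage-like cells. Without the filter all calls were lower, in macrophage-like cells apart from a call of *H2-Q4* in fibroblast-like cells.

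The median log2 difference of the members after injury, with a library left out, ran from -0.94 to -0.19 over all cells, -0.66 to 0.23 in endothelial-like, -1.93 to -0.84 in macrophage-like, -0.80 to -0.31 in fibroblast-like and -0.05 to 0.37 in SGC-like cells. Without the cells holding UMIs of 6 or more members it was 0.21 in endothelial-like and 0.23 in fibroblast-like cells. The cells removed were picked by member UMIs and were commoner in the controls, so an upward shift is built into the choice. What else enters the shift was not tested. Scaling to total UMIs moved the median of all genes to -0.11 over all cells and 0.14 in macrophage-like cells. Of 349 alternatives for single member values, 293 moved by less than the SE of the value in the main fit and 56 by more.

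The share of cells with a UMI of any member depended on depth. At 1000 UMIs it was 61.3% in endothelial-like, 15.1% in macrophage-like, 14.5% in fibroblast-like and 10.6% in SGC-like cells, at 2000 UMIs 82.6%, 28.6%, 24.2% and 20.0%, and without thinning 93.5%, 45.5%, 41.3% and 34.1%. With 2 libraries for each condition, the 3 lowest members (*Irgm2*, *Gbp5* and, outside endothelial-like cells, *Gbp4*) rest on few UMIs per library.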
